A study of Mus musculus with 16 samples.

Results

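The genes described here are 10 genes of dietary fat absorption, chosen by name: the apolipoprotein genes Apoa1, Apoa4, Apob, Apoc2 and Apoc3, the lipid transfer protein gene Mttp, the fatty acid binding protein genes Fabp1 and Fabp2, the triglyceride synthesis gene Dgat1 and the fatty acid receptor gene Cd36. They are 10 of 46878 genes in the count tables, and 9 of them, all but Cd36, were among the 16001 genes that passed the filter on low counts. They were followed in 16 bulk RNA libraries of sorted intestinal epithelium from RedMUC298trTg mice, 6-8 weeks old, a transgenic line in which mucin-producing cells carry a red (mCherry) label. All 4 groups came from this line, and no other treatment is named in the labels. The groups, with 4 libraries each, were mCherry-positive goblet cells of Si8, the 8th portion of the small intestine; mCherry-negative cells of Si8, labelled enterocytes; mCherry-positive goblet cells of the distal colon (DC); and mCherry-negative cells of the distal colon, labelled colonocytes. The mCherry-negative sorts are called other cells below, because they hold every unlabelled cell type of the epithelium.

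Enterocytes of the small intestine take up fatty acids and monoglycerides, bind them inside the cell with FABP proteins, rebuild them into triglyceride and load that triglyceride onto apolipoprotein B with the help of the microsomal triglyceride transfer protein. The finished particle, the chylomicron, also carries apolipoproteins A and C and leaves the cell through the Golgi into the lymph. Absorption of fat is mostly a task of the proximal small intestine, while the distal small intestine is known for bile acid uptake, and goblet cells are known for mucus secretion.

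A sequence of Apob is shown first because it decides which protein the intestinal transcript encodes. In the mouse intestine, C-to-U editing by the enzyme encoded by Apobec1 turns a glutamine codon of the Apob transcript into a stop codon, which gives the short apolipoprotein B48 of chylomicrons. The codon is number 2179 of transcript Apob-202 in exon 26 of 29, and the edited base lies at position 8008054 of chromosome 12 on the plus strand (GENCODE M21, GRCm38, equal to mm10). The 30 bases chr12:8008045-8008074 are given with the edited base in capitals.
Apob editing site: tacgcgataCaatttgatcagtatattaaa
Counts per gene do not show how much of the transcript was edited.

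The 250 bases before the RefSeq start of Apob and Fabp2 (GRCm38.p6, both on the plus strand) are shown as examples. Both genes were lower in goblet cells in both regions, as were Apoc2 and Dgat1. Of the 8 promoter windows found, only those of Apob and Fabp2 matched both parts of the repeat described below. The windows are chr12:7977427-7977676 for Apob and chr3:122894822-122895071 for Fabp2. Capitals mark matches to the motif letters TATAAA, known from core promoters, and to GNNCAAAG or CAAAGNNCA, which are parts of the direct repeat bound by nuclear receptors such as HNF4A.
Apob promoter: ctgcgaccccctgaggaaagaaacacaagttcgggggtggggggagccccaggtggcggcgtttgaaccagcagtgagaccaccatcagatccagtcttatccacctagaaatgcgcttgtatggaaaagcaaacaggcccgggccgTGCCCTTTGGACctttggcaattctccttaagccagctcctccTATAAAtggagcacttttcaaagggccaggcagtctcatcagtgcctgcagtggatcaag
Fabp2 promoter: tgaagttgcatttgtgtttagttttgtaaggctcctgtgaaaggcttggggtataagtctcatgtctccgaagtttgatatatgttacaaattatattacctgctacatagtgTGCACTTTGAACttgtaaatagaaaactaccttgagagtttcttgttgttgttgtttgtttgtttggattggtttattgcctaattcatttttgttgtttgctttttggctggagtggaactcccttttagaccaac
Motifs were searched on both strands, and GNNCAAAG and CAAAGNNCA have CAAAG in common, so that 1 stretch can match both. Promoter windows of 300 bases, 250 before and 50 after the RefSeq start, were found for 8 of the 10 genes, all but Apoc3 and Dgat1. Parts of the repeat matched as GNNCAAAG in 4 of these 8 (Apob, Apoc2, Fabp1 and Fabp2) and in 17.2% of all 32851 promoters searched. The letters CAAAGNNCA matched in 3 of the 8 (Apoa4, Apob and Fabp2) and in 6.36% of all promoters. TATAAA was found in Apob and Fabp1 and in 13.6% of all promoters. The letters GTTAAT, part of an HNF1 site, were found in Apoc2 and Fabp1 and in 7.1% of all promoters, and AGATAA, bound by zinc finger factors such as GATA4, was in none of the 8 and in 11.2% of all promoters. The motifs were chosen after the sequences had been read, and a match is a description of letters.

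Library totals lay between 37.44 and 40.53 M counts in Si8 goblet cells, 30.84 and 41.08 M in Si8 other cells, 11.92 and 18.53 M in DC goblet cells, and 14.89 and 17.69 M in DC other cells. Each region has its own deposited count table. Genes encoded by the mitochondrial genome took 3.19% to 4.07% of counts in Si8 goblet cells and 6.07% to 8.36% in Si8 other cells, and were at 0 in every DC library, so region and table cannot be told apart. RNA of goblet cells and of other cells came from different column types, which cannot be told apart from cell type. The sorts were checked on markers: all 8 goblet markers were higher in goblet cells than in other cells in both regions, and 12 of 12 enterocyte markers were lower in Si8 goblet than in Si8 other cells, with a median log2 fold change of -3.63. All 8 colonocyte markers were lower in DC goblet than in DC other cells, with a median of -5.31. Si8 goblet libraries also held Paneth cell markers, with a summed level of 12400 to 32973 CPM (counts per M counts), against 673 to 1804 CPM in Si8 other cells, and their part in the results was not tested. In bulk samples, fewer cells of a type and less RNA per cell cannot be told apart.

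Together the 10 genes took 1.05% of all counts in Si8 other cells and far less elsewhere. Their share was 0.111% ± 0.0111 in goblet cells of Si8, against 1.05% ± 0.227 in the other cells there. In DC it was 0.00700% ± 0.000645 in goblet cells, against 0.0318% ± 0.00243 in the other cells (SD, n = 4 libraries each). Levels were also set per kb of the union of annotated exons of each gene (CPM per kb), which can be longer than 1 transcript. On this scale Apoa1 made up 55.1% ± 2.88 of the summed level of the 10 genes in Si8 other cells. Fabp2 followed with 26.8% ± 2.75. In Si8 goblet cells the order was the other way, with Fabp2 at 51.3% ± 0.979 and Apoa1 at 26.3% ± 3.55. In the colon Fabp2 held 78.8% ± 2.94 of the level per kb in goblet cells and 82.6% ± 1.62 in other cells, and Apoa1 held under 0.1% in both.

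**Figure D1:**
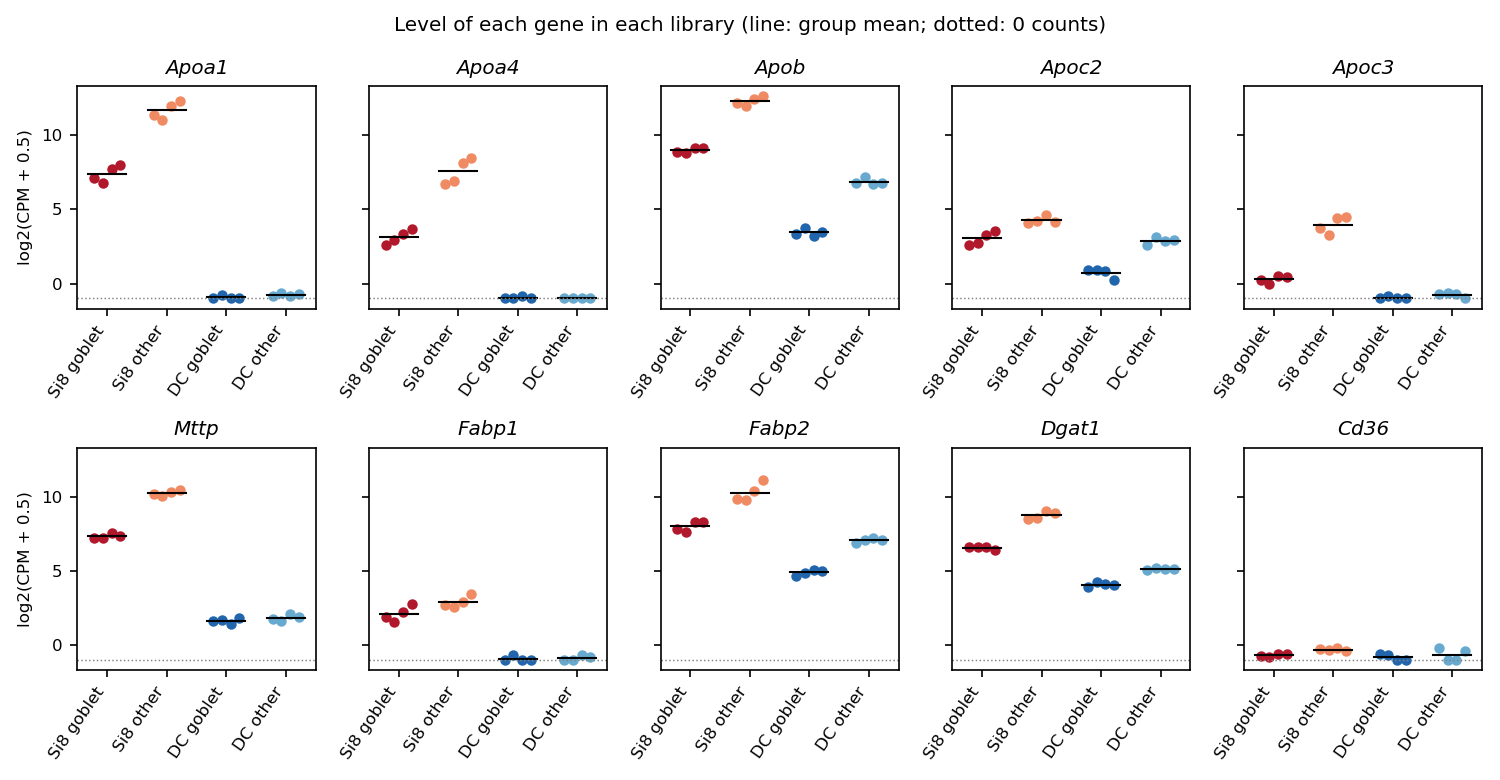
Level of each of the 10 genes in each library, as log2(CPM + 0.5) on the vertical axis, for Si8 goblet, Si8 other, DC goblet and DC other cells. Points are libraries, lines are group means and the dotted line is a count of 0; every gene has its highest group mean in Si8 other cells, where the Cd36 libraries overlap with those of DC other cells, and Apoa1, Apoa4, Apoc3 and Fabp1 lie at or near the dotted line in both DC groups.

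The first comparison asked how goblet cells of the small intestine differ from the epithelium around them. In Si8, 9 of the 9 genes tested were lower in goblet cells than in other cells, and none was higher (edgeR quasi-likelihood test, adjusted p under 0.05). Of all 16001 genes tested, 64.9% were called in this comparison, 31.8% lower and 33.1% higher in Si8 goblet cells, and the median log2 fold change was 0.03. The largest differences were in Apoa4, Apoc3 and Apoa1, neighbours in a gene cluster, and the smallest in Apoc2 and Fabp1. Enterocyte markers moved the same way, with summed levels of 1054 to 1899 CPM in Si8 goblet cells and 10998 to 19250 CPM in Si8 other cells and none of the 12 at 0. Markers of some other unlabelled cells did so too. Of intraepithelial lymphocyte markers, 7 of 7 were lower in Si8 goblet cells (at most 19.0 CPM in sum, against 199 to 319 CPM in Si8 other cells). The same held for 7 of 7 enteroendocrine markers (79.4 to 149 CPM, against 314 to 437 CPM). It also held for 5 of 7 macrophage and monocyte markers (4.41 to 30.1 CPM, against 11.8 to 26.8 CPM). Stem and proliferating markers went the other way, with 5 of 6 higher and 0 lower (1327 to 1866 CPM, against 940 to 1259 CPM). Of 4 tested tuft markers, 2 were lower and 2 were not called. The part of these cell types in the result was not tested. In the colon, 4 of the 9 genes tested were lower in goblet cells (Apob, Apoc2, Fabp2 and Dgat1), beside 27.9% of all genes lower, 27.8% higher and 55.7% called in all; Mttp was not called and the 4 others were at or under 3 counts in every DC library.

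Apob encodes the structural protein of the chylomicron, a single copy of which stays with each particle. Its gene spans chr12:7977648-8016835 on the plus strand. In Si8 goblet cells, libraries S2, S4, S6 and S8 had 469, 455, 575 and 562 CPM, against 4636, 4024, 5726 and 6420 CPM in Si8 other cells (S1, S3, S5 and S7). In DC goblet cells, libraries S9, S11, S13 and S18 had 9.63, 12.8, 8.79 and 10.9 CPM, against 109, 148, 106 and 111 CPM in DC other cells (S10, S12, S14 and S17). No 2 of the 4 groups overlapped, and Si8 other cells were highest and DC goblet cells lowest. The log2 fold change of goblet over other cells was -3.34 ± 0.16 in Si8 (SE, edgeR adjusted p = 1.5e-12) and -3.49 ± 0.17 in DC (adjusted p = 1.6e-12), which is 10.1-fold and 11.2-fold lower. The 2 goblet effects differed by 0.15 ± 0.22 on the log2 scale (adjusted p = 0.626).

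Mttp encodes the protein that loads lipid onto apolipoprotein B in the endoplasmic reticulum, and lies at chr3:138089854-138144968 on the minus strand. Si8 goblet libraries had 152, 147, 185 and 165 CPM (S2, S4, S6 and S8), against 1151, 1043, 1303 and 1426 CPM in Si8 other libraries (S1, S3, S5 and S7). DC goblet libraries had 2.57, 2.73, 2.20 and 3.01 CPM (S9, S11, S13 and S18), against 2.94, 2.53, 3.80 and 3.14 CPM in DC other libraries (S10, S12, S14 and S17). The Si8 groups stood apart from each other, and the DC groups overlapped at a low level of 39 to 64 counts per library. Mttp was lower in Si8 goblet cells by a log2 fold change of -2.92 ± 0.11 (adjusted p = 6.7e-14), while the DC value was -0.25 ± 0.16 (adjusted p = 0.209, edgeR). The difference of these effects was -2.67 ± 0.20 (adjusted p = 4.5e-09). Of the 9 genes tested, 2 (Mttp and Dgat1) were called with a negative difference and 1 (Apoc2) with a positive one, at adjusted p under 0.05. Of all genes, 15.6% were called with a negative and 16.5% with a positive difference, 32.1% in all. The count of members called is near that share. Apoa1, Apoa4, Apoc3 and Fabp1 were at or under 3 counts in every DC library, where a difference could hardly be called. Trmt10a overlaps Mttp on the opposite strand and had 3086 counts over the 16 libraries; the strand setting of the counting is not given in the sources used here, so reads of the overlap cannot be told apart.

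Apob and Mttp work as a pair, and their ratio per kb was highest in DC other cells and lowest in Si8 goblet cells. Within each library, the level of Apob per kb over that of Mttp was 1.41 ± 0.0668 in goblet cells of Si8, against 1.87 ± 0.135 in the other cells of Si8 (SD, n = 4 each). In the colon it was 1.79 ± 0.212 in goblet cells, against 17.7 ± 5.91 in the other cells. The DC other libraries S10, S12, S14 and S17 had ratios of 16.4, 26.2, 12.4 and 15.7, all above every library of the other groups. Si8 goblet libraries, with 1.37 to 1.51, were all below every library of the other groups, while Si8 other libraries (1.72 to 2.01) and DC goblet libraries (1.61 to 2.08) overlapped. Among DC other libraries S12 was the highest, and the ratios of the remaining DC other libraries did not overlap with any other group either. Enterocyte markers as a whole had summed levels of 120 to 135 CPM in DC goblet cells and 502 to 598 CPM in DC other cells, with 5 of 12 lower and 2 of 12 higher in goblet cells; their part in the ratio was not tested.

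**Figure D2:**
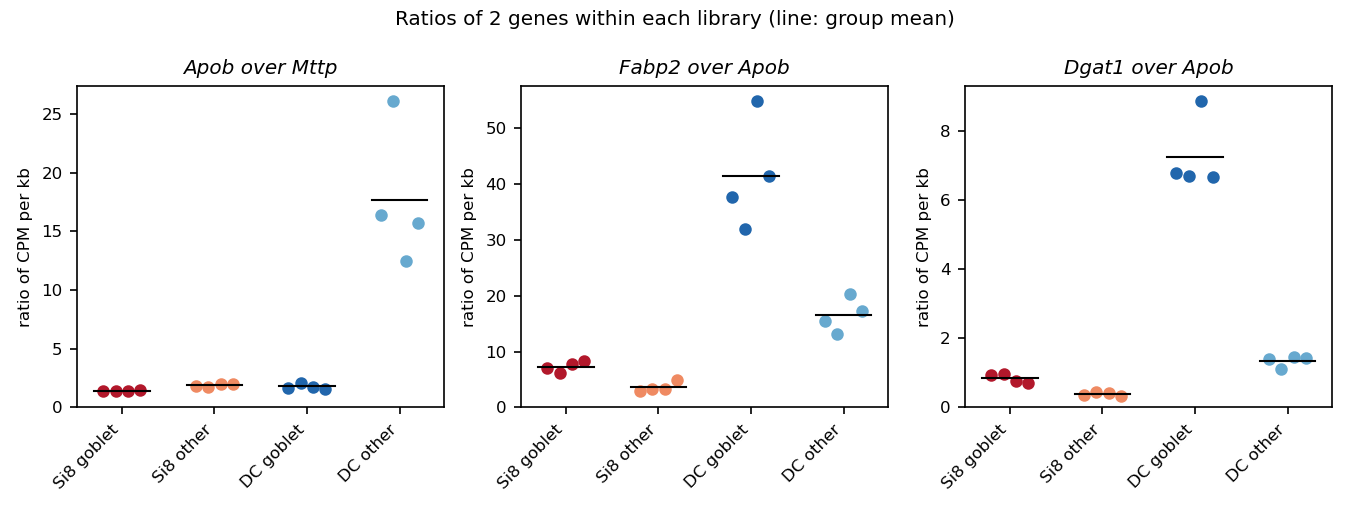
Ratio of 2 genes within each library, on the scale of CPM per kb, for Apob over Mttp, Fabp2 over Apob and Dgat1 over Apob. Points are libraries and lines are group means; DC other cells stand apart for Apob over Mttp, with 12.4 to 26.2, and DC goblet cells are highest for the other ratios.

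Apoa1, Apoc3 and Apoa4 encode apolipoproteins of high density lipoprotein and chylomicrons; APOC3 slows the breakdown of triglyceride-rich particles and APOA4 is released with chylomicrons. They lie together with Apoa5 within chr9:46228580-46271919, a span of 43.3 kb, with Apoc3 on the minus strand and Apoa1 and Apoa4 on the plus strand. Apoa1 had 139, 109, 208 and 253 CPM in Si8 goblet libraries S2, S4, S6 and S8, against 2712, 2074, 3987 and 5226 CPM in Si8 other libraries S1, S3, S5 and S7. Every Si8 other library was above every Si8 goblet library, and within both groups the spread was wide, with S6 and S8 above S2 and S4, and S5 and S7 above S1 and S3. The log2 fold change was -4.30 ± 0.30 (adjusted p = 3.7e-09), or 19.7-fold lower in goblet cells. Apoa4 had 5.67, 7.30, 9.64 and 12.1 CPM in Si8 goblet cells, against 106, 118, 280 and 358 CPM in Si8 other cells. Libraries S5 and S7 were well above S1 and S3 for this gene, and the groups did not overlap. Its log2 fold change was -4.64 ± 0.44 (adjusted p = 4.3e-06), or 24.9-fold lower.

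Apoc3 was far less abundant than its neighbour Apoa1. It had 0.695, 0.461, 0.958 and 0.865 CPM in Si8 goblet cells, against 12.8, 9.0, 20.7 and 22.4 CPM in Si8 other cells. The groups did not overlap, and the log2 fold change was -4.45 ± 0.30 (adjusted p = 2.8e-10). Per kb, the level of Apoc3 over that of Apoa1 was 0.00525 ± 0.000821 in Si8 goblet cells and 0.00565 ± 0.000519 in Si8 other cells, and that of Apoa4 over Apoa1 was 0.0343 ± 0.00770 and 0.0400 ± 0.00970 in the same groups. Both ratios overlapped between the groups. Apoa5, the last gene of the cluster, was not tested: its summed counts were 14 in Si8 goblet and 6 in Si8 other cells.

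In the colon the cluster was at the edge of detection. Apoa1 had a summed count of 2 over the DC goblet libraries and 6 over the DC other libraries, Apoc3 had 1 and 6, and Apoa4 had 1 and 0. All these libraries were at or under 3 counts, so no fold between goblet and other cells is given. The Apoa1 counts of DC goblet cells came from library S11, as did the Apoc3 count; the Apoa4 count came from S13.

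Apoc2 encodes the activator of lipoprotein lipase, and lies at chr7:19671579-19677941 on the minus strand, where it overlaps the same-strand gene Gm44805, which the tables do not list. It had 5.45, 6.30, 9.23 and 11.3 CPM in Si8 goblet cells (S2, S4, S6 and S8), against 16.7, 18.5, 24.4 and 17.4 CPM in Si8 other cells (S1, S3, S5 and S7). In DC goblet cells it had 1.37, 1.39, 1.31 and 0.662 CPM (S9, S11, S13 and S18), against 5.52, 8.22, 6.77 and 7.01 CPM in DC other cells (S10, S12, S14 and S17). Goblet and other cells did not overlap in either region, while Si8 goblet and DC other cells did. The log2 fold change was -1.26 ± 0.20 in Si8 (adjusted p = 2.0e-05) and -2.49 ± 0.27 in DC (adjusted p = 2.7e-07). The difference between the regions was 1.24 ± 0.34 (adjusted p = 0.00891, edgeR), so the goblet cells were further below their neighbours in the colon.

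Fabp2 encodes the intestinal fatty acid binding protein and lies at chr3:122895072-122899506 on the plus strand. It had 228, 194, 312 and 321 CPM in Si8 goblet cells (S2, S4, S6 and S8), against 920, 895, 1333 and 2216 CPM in Si8 other cells (S1, S3, S5 and S7). In DC goblet cells it had 25.1, 28.3, 33.5 and 31.2 CPM (S9, S11, S13 and S18), against 116, 134, 150 and 133 CPM in DC other cells (S10, S12, S14 and S17). All 4 groups stood apart, and S7 was the highest library by a wide margin. The log2 fold change was -2.35 ± 0.25 in Si8 (adjusted p = 5.7e-07) and -2.18 ± 0.26 in DC (adjusted p = 2.1e-06), with a difference of -0.17 ± 0.34 (adjusted p = 0.747). Without library S7 that difference was 0.18, with an adjusted p of 0.603 (edgeR).

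Fabp1, the liver-type binding protein gene (chr6:71199827-71205023, plus strand), was much lower than Fabp2. It had 3.29, 2.43, 4.25 and 6.22 CPM in Si8 goblet cells (S2, S4, S6 and S8), against 6.09, 5.36, 7.02 and 10.6 CPM in Si8 other cells (S1, S3, S5 and S7). Goblet library S8 lay within the range of the other cells, so the groups overlapped. The log2 fold change was -0.84 ± 0.28 (adjusted p = 0.0136), and -0.61 without library S7 (adjusted p = 0.0655, edgeR). In each DC group its summed count was 3, and all 3 counts of DC goblet cells came from library S11. Per kb, the level of Fabp1 over that of Fabp2 was 0.0261 ± 0.00529 in Si8 goblet cells and 0.00988 ± 0.00141 in Si8 other cells.

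Dgat1 encodes an enzyme that adds the last fatty acid to triglyceride, and lies at chr15:76502015-76511953 on the minus strand. It had 96.3, 96.2, 98.1 and 86.7 CPM in Si8 goblet cells (S2, S4, S6 and S8), against 361, 387, 519 and 480 CPM in Si8 other cells (S1, S3, S5 and S7). In DC goblet cells it had 14.3, 18.8, 17.1 and 15.9 CPM (S9, S11, S13 and S18), against 33.6, 36.3, 34.3 and 34.6 CPM in DC other cells (S10, S12, S14 and S17). No groups overlapped, and the spread within a group was widest in Si8 other cells, from 361 to 519 CPM. The log2 fold change was -2.21 ± 0.11 in Si8 (adjusted p = 1.2e-12) and -1.07 ± 0.11 in DC (adjusted p = 9.1e-08). The difference was -1.15 ± 0.15 (adjusted p = 6.9e-06, edgeR), so the goblet cells were further below their neighbours in Si8.

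**Figure D3:**
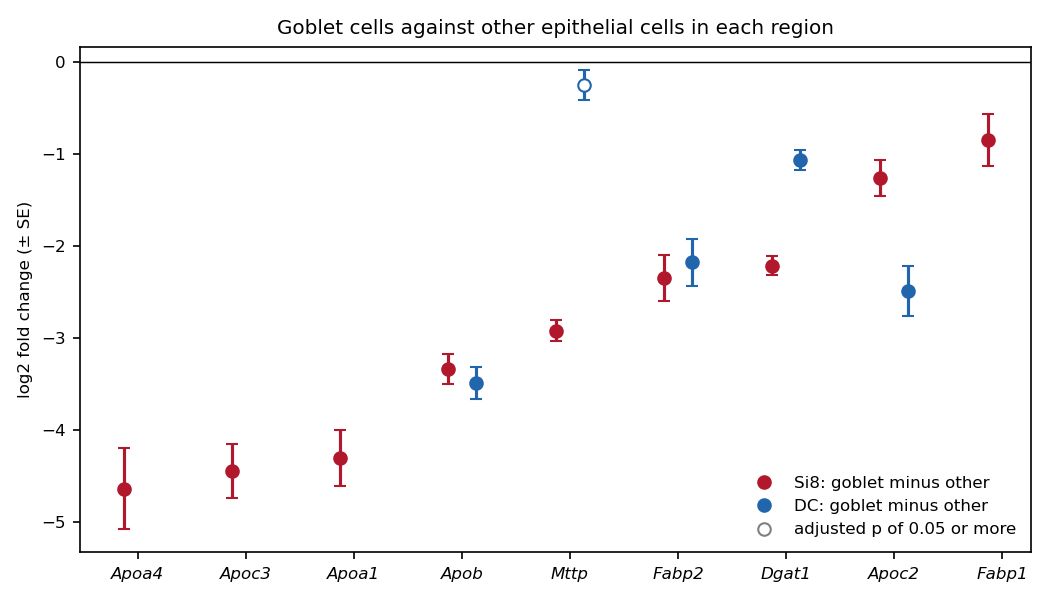
Log2 fold change of goblet over other cells (vertical axis, ± SE from edgeR) for each gene in Si8 and DC; filled points have an adjusted p under 0.05. Apob and Fabp2 differ between the regions by 0.15 and -0.17, Mttp and Dgat1 are further below 0 in Si8, and Apoc2 is further below 0 in DC; genes at or under 3 counts in all DC libraries have no DC point.

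Cd36, the fatty acid translocase gene (chr5:17781690-17888801, minus strand), was near the limit of detection in all 16 libraries. It had 4, 3, 5 and 6 counts in Si8 goblet cells (S2, S4, S6 and S8), against 9, 12, 11 and 8 counts in Si8 other cells (S1, S3, S5 and S7). In DC goblet cells it had 3, 3, 0 and 0 counts (S9, S11, S13 and S18), against 7, 0, 0 and 4 counts in DC other cells (S10, S12, S14 and S17). It failed the filter on low counts. With no filter its log2 fold change of goblet over other cells was -1.23 ± 0.50 in Si8 (adjusted p = 0.0452, edgeR) and -0.93 ± 0.77 in DC (adjusted p = 0.471). Its ratio of summed counts between the regions, Si8 over DC per TMM-scaled total, was 1.52 in goblet cells, with an exact 95% interval of 0.577 to 4.67, and 1.90 in other cells, with an interval of 0.955 to 4.10. Intervals on counts cover counting error only. Of other cell types known to express Cd36, adipocyte markers had summed levels of at most 0.583 CPM in any library, endothelial markers of 3.01 to 9.90 CPM, and macrophage and monocyte markers of 3.19 to 30.1 CPM. Their part in the Cd36 counts was not tested.

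The other comparison asked how the regions differ. All 9 genes tested were higher in Si8 than in DC, both in goblet cells and in other cells. Apoa1, Apoa4, Apoc3 and Fabp1 were at or under 3 counts in every DC library. They passed the filter on low counts through Si8 alone, so their direction was set in advance. Cd36 failed the filter, and with no filter it was not called (edgeR adjusted p = 0.563 in goblet cells and 0.226 in other cells). In goblet cells, 31.5% of all genes were higher in Si8, 30.6% lower and 62.1% called in all. In other cells, 33.6% of all genes were higher in Si8, 33.3% lower and 66.9% called in all. Mttp had the largest differences of the genes with more than 3 counts per DC library: a log2 fold change of 5.95 ± 0.14 in goblet cells (adjusted p = 2.2e-17) and of 8.63 ± 0.16 in other cells (adjusted p = 2.5e-19). Apob was higher in Si8 by 5.61 ± 0.18 in goblet cells (adjusted p = 2.2e-15) and by 5.46 ± 0.18 in other cells (adjusted p = 1.4e-15). Fabp2 differed by 3.16 ± 0.26 in goblet cells (adjusted p = 3.1e-08) and by 3.33 ± 0.26 in other cells (adjusted p = 9.7e-09). Dgat1 was higher by 2.51 ± 0.11 in goblet cells and by 3.66 ± 0.11 in other cells, and Apoc2 by 2.72 ± 0.26 and by 1.49 ± 0.21 in the same order (edgeR, largest adjusted p = 4.0e-06).

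For the genes at the floor in DC, the ratio of summed counts per effective total was used in place of a fitted fold. The intervals below cover counting error only, not spread between libraries. Apoa1 was 6331 times higher in Si8 than in DC in goblet cells (exact 95% interval 1752 to 52278) and 38618 times higher in other cells (17742 to 105231). Apoa4 was 623 times higher in goblet cells (112 to 24620) and at least 4767-fold higher in other cells, where the DC count was 0 and a floor of 3 counts over the group was used. Apoc3 was 53.1 times higher in goblet cells (9.32 to 2116) and 179 times higher in other cells (81.9 to 487). Fabp1 was 96.7 times higher in goblet cells (32.9 to 470) and 162 times higher in other cells (55.2 to 786). The DC goblet counts behind the ratios of Apoa1, Apoc3 and Fabp1 are all from S11, and that of Apoa4 is from S13; without that library the DC goblet count is 0. Enterocyte markers moved with these differences: 11 of 12 were higher in Si8 than in DC in goblet cells and 11 of 12 in other cells, and their part was not tested. Intraepithelial lymphocyte markers moved the same way, 6 of 7 higher in Si8 in goblet cells and 7 of 7 in other cells. Hepatocyte markers, looked at because the liver also makes apolipoproteins, had summed levels of 1095 to 1527 CPM in Si8 goblet and 866 to 1200 CPM in Si8 other cells, against 99.4 to 112 CPM in DC goblet and 44.2 to 71.9 CPM in DC other cells. In Si8 most of this was Cps1, which the intestine also expresses and which was higher in Si8 in both sorts. In DC, Cps1 averaged 37.8 CPM in goblet and 28.9 CPM in other cells, and Ttr averaged 59.2 and 22.7 CPM. Of the 4 hepatocyte markers tested, 2 (Cps1 and Fgb) were higher and 2 (Alb and Ttr) lower in Si8 in goblet cells, and 1 was higher and 2 were lower in other cells. Alb, the defining marker, had summed counts of 2 in Si8 goblet and 5 in Si8 other cells, against 551 in DC goblet and 147 in DC other cells. The part of these cell types in the regional differences was not tested.

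The wider pathway was followed through lists of genes that were chosen with earlier results of these data known. Every list count below stands beside a share over all 16001 genes tested. In goblet against other cells, 31.8% of all genes were lower and 33.1% higher in Si8, and 27.9% lower and 27.8% higher in DC. In Si8 against DC, 31.5% were higher and 30.6% lower in goblet cells, and 33.6% higher and 33.3% lower in other cells. A list count near these shares does not set the list apart from other genes. Among 22 transcription factors of lipid absorption, 18 were lower and 1 was higher in Si8 goblet than in Si8 other cells, with a median log2 fold change of -0.80, and 15 were lower and 1 was higher in DC goblet than in DC other cells, with a median of -0.83. Between the regions, 16 of the 22 were higher and 4 lower in Si8 than in DC in goblet cells, and 17 were higher and 4 lower in other cells. Hnf4a, a nuclear receptor gene, averaged 841 ± 49.5 CPM in Si8 goblet cells and 1358 ± 123 CPM in Si8 other cells. In DC it averaged 323 ± 14.9 CPM in goblet cells and 896 ± 82.9 CPM in other cells. Its log2 fold change of goblet over other cells was -0.69 ± 0.09 in Si8 (adjusted p = 1.4e-06) and -1.47 ± 0.09 in DC (adjusted p = 4.3e-11). Maf, a basic leucine zipper factor, was 9.03-fold lower in Si8 goblet cells (adjusted p = 3.7e-11), while the factor Klf5 differed by -0.39 ± 0.08 on the log2 scale (adjusted p = 0.00025, edgeR).

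Of 17 tested genes of chylomicron assembly and export, 9 were lower and 6 higher in Si8 goblet than in Si8 other cells, with a median of -0.37, and 8 were lower and 6 higher in DC goblet than in DC other cells, with a median of -0.02. The most abundant of the list were higher in goblet cells. P4hb, which encodes protein disulfide isomerase, a subunit of the lipid transfer complex as well as a general folding enzyme, averaged 2087 ± 118 CPM in Si8 goblet cells and 1370 ± 58.8 CPM in Si8 other cells, a log2 fold change of 0.61 ± 0.08 (adjusted p = 3.8e-06). Mia3, whose product loads large cargo at the exit sites of the endoplasmic reticulum, had a log2 fold change of 1.32 ± 0.07 in Si8 (adjusted p = 1.0e-11) and of 2.30 ± 0.08 in DC (adjusted p = 5.7e-15). Surf4, a cargo receptor, had values of 0.30 ± 0.08 in Si8 (adjusted p = 0.00219) and 1.34 ± 0.08 in DC (adjusted p = 1.8e-11, edgeR). Mttp, the partner of P4hb in the complex, was lower in Si8 goblet cells, as given above. In Si8 against DC, 10 of the 17 were higher and 3 lower in goblet cells, and 13 were higher and 1 lower in other cells.

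Apobec1, the editing enzyme gene, was chosen after its values were seen. It averaged 56.7 ± 17.2 CPM in Si8 goblet cells and 58.7 ± 12.7 CPM in Si8 other cells, and 21.1 ± 3.12 CPM in DC goblet cells and 78.5 ± 7.82 CPM in DC other cells (SD, n = 4 each). Its log2 fold change of goblet over other cells was -0.05 ± 0.19 in Si8 (adjusted p = 0.833) and -1.90 ± 0.20 in DC (adjusted p = 3.8e-07), and the difference was 1.85 ± 0.27 (adjusted p = 5.2e-05). Its cofactor gene A1cf was lower in goblet cells in both regions, by -1.66 ± 0.09 in Si8 (adjusted p = 4.3e-12) and -1.80 ± 0.10 in DC (adjusted p = 5.6e-12, edgeR). In Si8, where Apob itself was 10.1-fold lower in goblet cells, the level of Apobec1 thus differed by less than the spread between libraries.

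Of 20 tested genes of glyceride synthesis and lipid droplets, 13 were lower and 5 higher in Si8 goblet than in Si8 other cells (median -0.75), and 11 were lower and 5 higher in DC goblet than in DC other cells (median -0.41). Plin3, a lipid droplet coat gene, was 3.39-fold lower in Si8 goblet cells (adjusted p = 1.9e-11) and 1.24-fold lower in DC goblet cells (adjusted p = 0.014). Lpin2, which encodes a phosphatidate phosphatase, was 3.27-fold lower in Si8 goblet cells (adjusted p = 3.3e-06), with a log2 value of -0.52 ± 0.22 in DC (adjusted p = 0.0516). Agpat2, which encodes an acyltransferase, was 3.22-fold lower in Si8 goblet cells (adjusted p = 1.0e-11, edgeR) and 1.81-fold lower in DC goblet cells (adjusted p = 2.7e-07). In Si8 against DC, 11 of the 20 were higher and 5 lower in goblet cells, and 11 were higher and 7 lower in other cells.

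Of 15 tested genes of lipid digestion and uptake, 9 were lower and 4 higher in Si8 goblet than in Si8 other cells (median -1.73), and 7 were lower and 4 higher in DC goblet than in DC other cells (median -0.22). Slc27a4, a fatty acid transport protein gene, averaged 104 ± 12.6 CPM in Si8 goblet cells and 997 ± 295 CPM in Si8 other cells, 9.58-fold lower in goblet cells (adjusted p = 5.5e-12). In DC it was 2.00-fold lower in goblet cells (adjusted p = 2.3e-05), and its goblet effect differed between the regions by -2.26 ± 0.22 (adjusted p = 2.4e-07). Npc1l1, the cholesterol uptake transporter gene, averaged 161 ± 35.2 CPM in Si8 goblet cells and 935 ± 289 CPM in Si8 other cells, and had a mean under 1 CPM in both DC groups. Abcg5, a sterol exporter gene, was 3.33-fold lower in Si8 goblet cells (adjusted p = 2.2e-05) and 3.74-fold lower in DC goblet cells (adjusted p = 0.00058, edgeR). In Si8 against DC, 8 of the 15 were higher and 2 lower in goblet cells, and 11 were higher and 3 lower in other cells.

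Of 15 tested genes of fatty acid activation and carriers, 11 were lower and 3 higher in Si8 goblet than in Si8 other cells (median -0.70). In DC goblet cells 5 were lower and 5 higher than in DC other cells (median -0.01), near the 27.9% lower and 27.8% higher of all genes. Fabp6, the ileal bile acid binding protein gene, averaged 844 ± 168 CPM in Si8 goblet cells and 5070 ± 1098 CPM in Si8 other cells, against 1.76 ± 0.264 CPM in DC goblet cells and 1.54 ± 0.678 CPM in DC other cells. Acsl5, an acyl-CoA synthetase gene, was 3.07-fold lower in Si8 goblet cells (adjusted p = 3.6e-10), with a log2 value of -0.01 ± 0.11 in DC (adjusted p = 0.955). Stard4, a sterol carrier gene, had log2 values of -0.37 ± 0.09 in Si8 (adjusted p = 0.00083) and 0.23 ± 0.09 in DC (adjusted p = 0.0271, edgeR). In Si8 against DC, 6 of the 15 were higher and 7 lower in goblet cells, and 9 were higher and 4 lower in other cells.

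Of 11 tested genes of other apolipoproteins and their receptors, 6 were lower and 3 higher in Si8 goblet than in Si8 other cells (median -0.46). In DC goblet cells 4 were lower and 4 higher than in DC other cells (median -0.09), near the 27.9% lower and 27.8% higher of all genes. Vldlr, a receptor gene for triglyceride-rich particles, was 17.1-fold higher in Si8 goblet cells (adjusted p = 2.5e-15) and 2.26-fold higher in DC goblet cells (adjusted p = 2.2e-09). Lrp1, the gene of a remnant receptor, was 5.46-fold lower in Si8 goblet cells (adjusted p = 5.5e-11) and 8.93-fold lower in DC goblet cells (adjusted p = 2.8e-12, edgeR). In Si8 against DC, 3 of the 11 were higher and 5 lower in goblet cells, and 3 were higher and 4 lower in other cells.

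**Figure D4:**
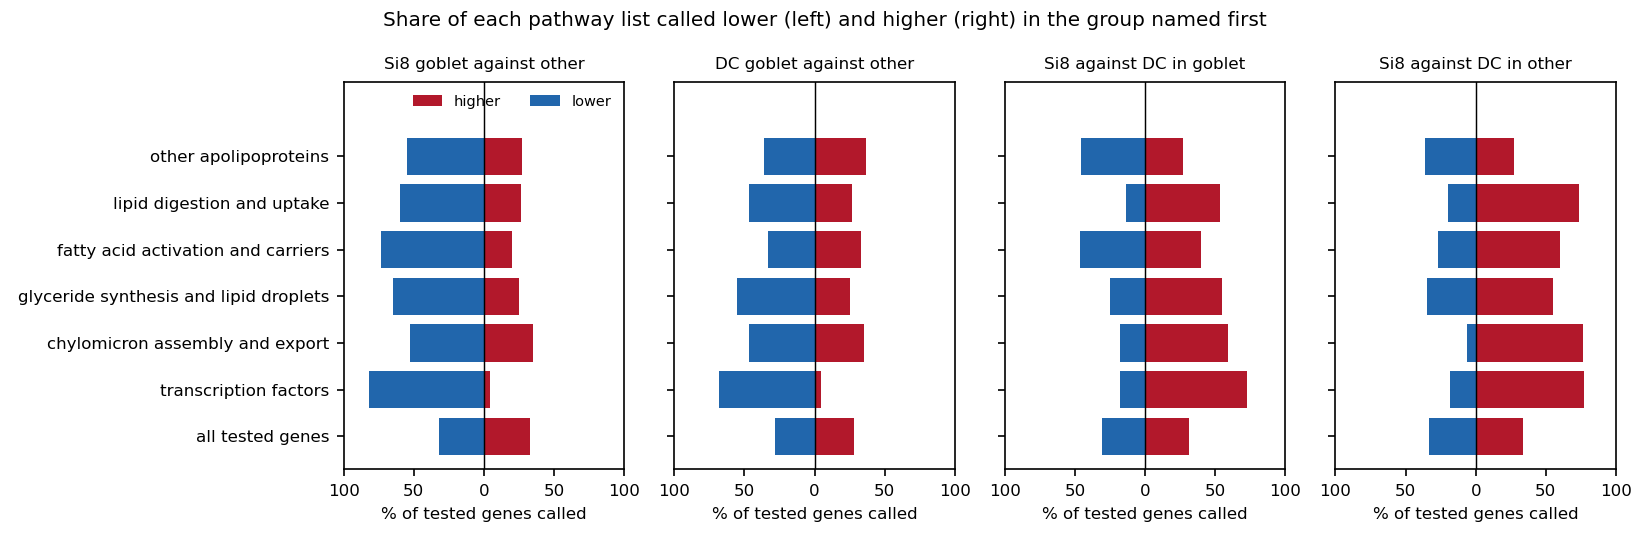
Percentage of tested genes in each list, and of all 16001 tested genes, that were called lower (bars to the left) or higher (bars to the right) in the group named first, in 4 comparisons. Of the 22 transcription factors, 18 are lower in Si8 goblet cells, and of the 17 chylomicron assembly genes, 13 are higher in Si8 than in DC in other cells.

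The genes whose pattern over the 16 libraries was most like that of each member were taken from 10066 genes with at least 10 CPM in their highest group, by the root mean square difference of log2(CPM + 0.5) around each gene's mean. Nearest to Apob was Slc10a2, the ileal bile acid transporter gene, with a difference of 0.27, followed by Slc51b, a bile acid exporter gene, with 0.37. Nearest to Apoa1 were Enpep (0.57), Sis (0.59) and Fabp6 (0.74), which encode 2 brush border enzymes and the bile acid binding protein. The nearest to Apoa4 was Pdzk1 (0.36), to Mttp Tgfbi (0.20), to Dgat1 Fam213b (0.16), to Fabp2 Gm28373 (0.33), to Apoc2 Btnl4 (0.25), to Apoc3 Gm9992 (0.22) and to Fabp1 Jdp2 (0.33). Among the members themselves, Fabp2 and Dgat1 were the closest pair, with 0.48. The points behind each value are the same 16 libraries in the same 4 groups.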

How the data were processed

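Counts were deposited by the authors as 1 table of raw read counts per region. The submitters' processing notes name build mm10 and, among tools, DESeq2 1.14, HTSeq 0.6.1p1, STAR 2.4.0f and FastQC 0.11.2; no settings are given in the sources used here. Per the labels' protocols, libraries were made from total RNA with a stranded kit after removal of ribosomal RNA. Each table listed 46882 genes; 4 entries with a repeated symbol were left out. A deposited table of normalized values was not used. No 2 libraries held identical values.

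The test was that of edgeR 4.0.16 (R 4.3.3) with TMM scaling, filterByExpr by group, 1 fit over 16 libraries in 4 groups without covariates, robust quasi-likelihood F tests, and Benjamini-Hochberg adjustment over 16001 genes, called under 0.05. The SE was derived as the size of the log2 fold change divided by the root of its F statistic. CPM uses TMM-scaled totals; per kb values divide by the union of exons in GENCODE M21. At or under 3 counts per library in both groups no fold is given. The fit was also run on counts simulated for Si8 goblet against other cells over 16001 genes. It called 100% of the 50 genes changed at each of 2, 4, 10 and 20 fold, and 0.0443% of the unchanged genes. The changed genes had over 50 expected counts in an average library. All groups shared 1 base level per gene, and the spread was drawn from the fit itself. The check therefore covers neither genes at low counts nor spread beyond that of the fit. The labels do not say whether the libraries are separate animals; the p-values therefore reflect spread among these libraries alone, and that spread may be technical.

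The members and lists were chosen with earlier results of these data known. Named genes were all 10 members, the 3 most abundant tested genes of each list, and the 3 genes nearest each member, of which some are printed; 1 gene of the lists is not reported here. Alternatives were RLE scaling, DESeq2 1.42.0, no filter, fits of 2 groups, mitochondrially encoded genes left out, no robust option, raw totals for CPM, and each library left out.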

Additional observations from a re-analysis of the deposited data

Results flagged for a closer look

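In 3 of 31 groups of 4 libraries checked, 1 library lay far from the other 3; chance alone flags about 1 in 20 groups. Apob had 148.346 CPM in DC other library S12, above 106 to 111 CPM in the remaining 3. Apoc2 had 0.661657 CPM in DC goblet library S18, from 9 counts, below 1.31 to 1.39 CPM in the remaining 3. Dgat1 had 86.6711 CPM in Si8 goblet library S8, below 96.2 to 98.1 CPM in the remaining 3.

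The goblet effect differed between Si8 and DC by the edgeR test of the difference itself for Mttp (log2 difference -2.67, adjusted p = 4.5e-09), Dgat1 (-1.15, adjusted p = 6.9e-06) and Apoc2 (1.24, adjusted p = 0.00891). Of all 16001 genes tested, 32.1% were called for this difference, so the count of members does not set them apart.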

How the results depend on the processing

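Of 809 recomputed values of 37 member results, 807 kept their direction and their side of the threshold, under 6 alternatives that left out no library and 16 that left out 1. Without Si8 other library S7, Fabp1 in Si8 goblet against other cells was -0.61 (adjusted p = 0.0655), and the Fabp2 difference between the regions changed sign to 0.18 (adjusted p = 0.603); over all libraries left out in turn it ranged from -0.32 to 0.18. Leaving out each library in turn gave 8 to 9 members called in Si8 goblet against other cells. It gave 4 in DC goblet against other cells, 9 in Si8 against DC in goblet cells and 9 among other cells. For the regional difference of effects it gave 3. With all libraries, the shares of all genes called were 64.9%, 55.7%, 62.1%, 66.9% and 32.1%, in the same order. The counts of 4 and 3 are near or below these shares. Both counts of 9 include the genes at the DC floor, Apoa1, Apoa4, Apoc3 and Fabp1. The summed CPM of the members in DC goblet cells was 70.0 on raw totals, against 60.6 on TMM-scaled totals; the alternative changes the totals alone. Of 654 recomputed list counts, 0 moved by over 1.5 times. No paired analysis was possible because the groups share no replicate number; library numbers of goblet and other sorts neighbour each other in the titles, but no label ties them to a shared animal. In DC, results for Apoa1, Apoa4, Apoc3, Fabp1 and Cd36 were limited by low counts, at most 7 per library. Library totals were lower in DC than in Si8, and the part of depth in these counts was not tested.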
